A study of Homo sapiens with 10 samples.

Results

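Gene levels were described in SH-SY5Y cells that carried the empty expression vector pcDNA3, the baseline against which the study's FOXP2-overexpressing cells had been set. The members are the 2 of 10 RNA-seq libraries whose labels name the empty vector, replicates A and B, and they hold values for 27992 gene symbols. SH-SY5Y is a human neuroblastoma line, a subline of SK-N-SH. Parental cells were nucleofected with linearized pcDNA3 in separate rounds, and stably transfected cells were kept under geneticin in medium with fetal calf serum. The labels give 1 replicate per round and speak of cell lines and of clones, so whether a library came from 1 clone or from a pool of transfectants is not stated in the labels. The other libraries carried primate FOXP2 cDNAs in the same vector and were not compared here. With 1 condition and n = 2 there is no contrast and no test, and each level is given as measured in replicate A and then in replicate B.

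Neuroblastoma arises from the sympathoadrenal branch of the neural crest, the embryonic cells that build sympathetic ganglia and the adrenal medulla. In this branch a set of transcription factors that regulate one another, among them PHOX2A, HAND2 and GATA3, turns on the enzymes that convert tyrosine into dopamine and noradrenaline, the dense-core granules that store these amines, and the membrane proteins of a neuron. Cultures of the SK-N-SH family are known to hold neuroblast-like cells as well as flat, substrate-adherent cells with mesenchymal features.

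Levels are in BPKM, which is RPKM with covered bases in the role of reads, so they are scaled to transcript length and can be set against each other between genes. A gene counted as expressed at 1 BPKM or more in both libraries, and a gene without any value above 0 is described as listed at 0. Of all symbols, 13152 were expressed (47.0%) and 6463 were listed at 0 in both libraries (23.1%). Among the 16931 symbols that match a RefSeq protein-coding gene, 10115 were expressed (59.7%) and 2411 were listed at 0 (14.2%), and these last shares are the background for the lists of genes below. Absolute depth is unknown from such values. The most frequent ratio between the libraries among transcripts under 0.02 BPKM was 1.048 (186 of 1359 transcripts), so 1 read was worth slightly more in replicate A and replicate B was read about that much deeper. Genes at 0 in 1 library alone had a median of 0.0136 BPKM in the other.

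The libraries resembled each other closely across expressed genes. Pearson's r of the log2 levels was 0.981 across 13152 genes, which are not independent replicates, and the median fold between the libraries was 1.17. The ratio exceeded 2 in 106 expressed genes (0.806%), 51 of them higher in replicate A and 55 higher in replicate B. Replicate A had the higher value in 64.2% of expressed genes.

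**Figure D1:**
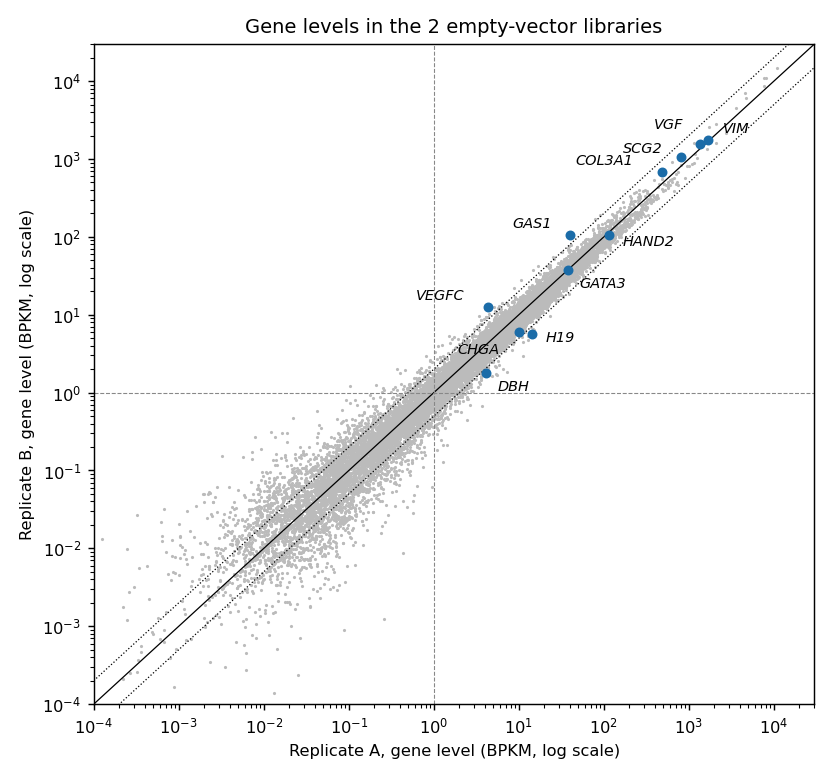
Gene level in replicate A (x axis) against replicate B (y axis), both in BPKM on log scales, for every gene above 0 in both libraries. The solid line marks equal levels, the dotted lines a ratio of 2 and the dashed lines 1 BPKM, and the blue points are named genes: HAND2, GATA3 and VIM lie on the line of equal levels, GAS1 and VEGFC above the upper dotted line, and DBH and H19 below the lower one.

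The label of a noradrenergic neuroblastoma was checked on its defining markers, and 1 of them went against it. HAND2, a basic helix-loop-helix factor of sympathetic neurons, stood at 114 and 105 BPKM. GATA3, a zinc finger factor needed for the sympathetic lineage, stood at 38.1 and 37.8 BPKM. CHGA, the granule protein chromogranin A, was lower, at 10.1 and 6 BPKM. TH, tyrosine hydroxylase, the rate-limiting enzyme of catecholamine synthesis, was listed at 0 in both libraries and in each of its 7 transcripts. The cells are therefore called empty-vector cells below, and not noradrenergic. The identity of the culture was not tested beyond gene levels, so each level is that of a library labelled SH-SY5Y, with TH at 0 and the mesenchymal genes given below. In bulk RNA, fewer cells of a type and less RNA per cell cannot be told apart, and this holds for each level given here.

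The most abundant transcripts mixed cytoskeletal, granule and matrix genes. The highest protein-coding gene was ACTB, cytoplasmic actin, at 2103 and 1593 BPKM, and 10 entries stood above it, none of them under a RefSeq protein-coding symbol, of which the highest was OK/SW-cl.16 at 10944 and 14662 BPKM. Entries described as mitochondrial in the table included cytochrome b, at 4720.5 and 6051 BPKM, and, below ACTB, MTND5, a subunit of respiratory complex I, at 1148 and 1599 BPKM. VIM, the intermediate filament vimentin, came next among protein-coding genes at 1687 and 1748 BPKM, and VGF, a secreted granule protein induced by nerve growth factor, followed at 1365 and 1565 BPKM. SCG2, secretogranin II, reached 802 and 1073 BPKM. MDK, the heparin-binding growth factor midkine, reached 629 and 907 BPKM. COL3A1, a fibrillar collagen chain, reached 488 and 683 BPKM. The 10 highest protein-coding genes held 5.49% of the summed protein-coding level and the 1000 highest 54.7%. Only 5 protein-coding genes had a mean of 1000 BPKM or more, 309 lay from 100 to 1000, 4141 from 10 to 100 and 5812 from 1 to 10.

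Transcription factors of the sympathoadrenal lineage were present for the most part. Of the 26 listed, 19 were expressed (73.1%, against 59.7% of protein-coding genes), 1 was listed at 0 and 6 lay between. The median was 12.9 BPKM among those expressed. HAND2 was the highest, followed by TBX2, a T-box repressor, at 44.6 and 43.6 BPKM, and by MEIS2, a homeodomain cofactor, at 41.4 and 46.3 BPKM. PHOX2A, a paired-like homeodomain factor that activates the gene of dopamine beta-hydroxylase, had 35 and 36.7 BPKM, close to the level of GATA3. ISL1, a LIM homeodomain factor of sympathetic and sensory neurons, had 17.1 and 16.8 BPKM. SOX11 had 12.3 and 13.5 BPKM and SOX4 had 17 and 15.6 BPKM, related HMG-box factors of young neurons. GATA2 was higher in replicate A, with 11.4 and 5.95 BPKM, and HAND1 stood far below HAND2, at 2.72 and 1.6 BPKM.

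The list also had members that were low. INSM1, a zinc finger factor of neuroendocrine cells, was listed at 0 in both, and its relative INSM2 had 0.581 and 0.331 BPKM. TFAP2A, an AP-2 factor of the early neural crest, was near 0, with 0.00694 and 0.0198 BPKM, while its paralog TFAP2B had 3.51 and 2.73 BPKM. The remaining expressed members ranged from KLF7, at 3.04 and 2.45 BPKM, to PBX3, at 27 and 24.6 BPKM. None of the 19 expressed members differed over 2-fold between the libraries, as against 0.806% of all expressed genes. Of these members 14 were higher in replicate A, as against 64.2% of all expressed genes.

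Genes of catecholamine chemistry were expressed in 12 of 19 cases (63.2%), near the 59.7% of all protein-coding genes. The first step of the pathway, catalysed by TH, had no value above 0. DDC, aromatic amino acid decarboxylase, which makes dopamine, had 1.57 and 0.643 BPKM. DBH, dopamine beta-hydroxylase, which makes noradrenaline, had 4.15 and 1.79 BPKM, over 2-fold apart between the libraries. PNMT, which makes adrenaline, was under 1 BPKM, at 0.34 and 0.323 BPKM. Of the enzymes that supply the pterin cofactor, SPR had 10.9 and 7.66 BPKM, PTS had 7.08 and 5.44 BPKM, and GCH1, which starts that pathway, was lower, at 1.15 and 0.933 BPKM.

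Storage, uptake and breakdown were unevenly represented. SLC18A2, the vesicular monoamine transporter of neurons, had 2.17 and 2.62 BPKM, and its chromaffin cell paralog SLC18A1 had 0.353 and 0.0874 BPKM. SLC6A2, the noradrenaline transporter, had 2.77 and 1.17 BPKM, while SLC6A3, the dopamine transporter, had 0 and 0.000678 BPKM. CYB561, the electron carrier of the granule membrane that DBH relies on, had 26.3 and 26.8 BPKM. MAOB, a monoamine oxidase, had 10.2 and 10.8 BPKM, above its paralog MAOA at 2.95 and 2.89 BPKM in both libraries.

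**Figure D2:**
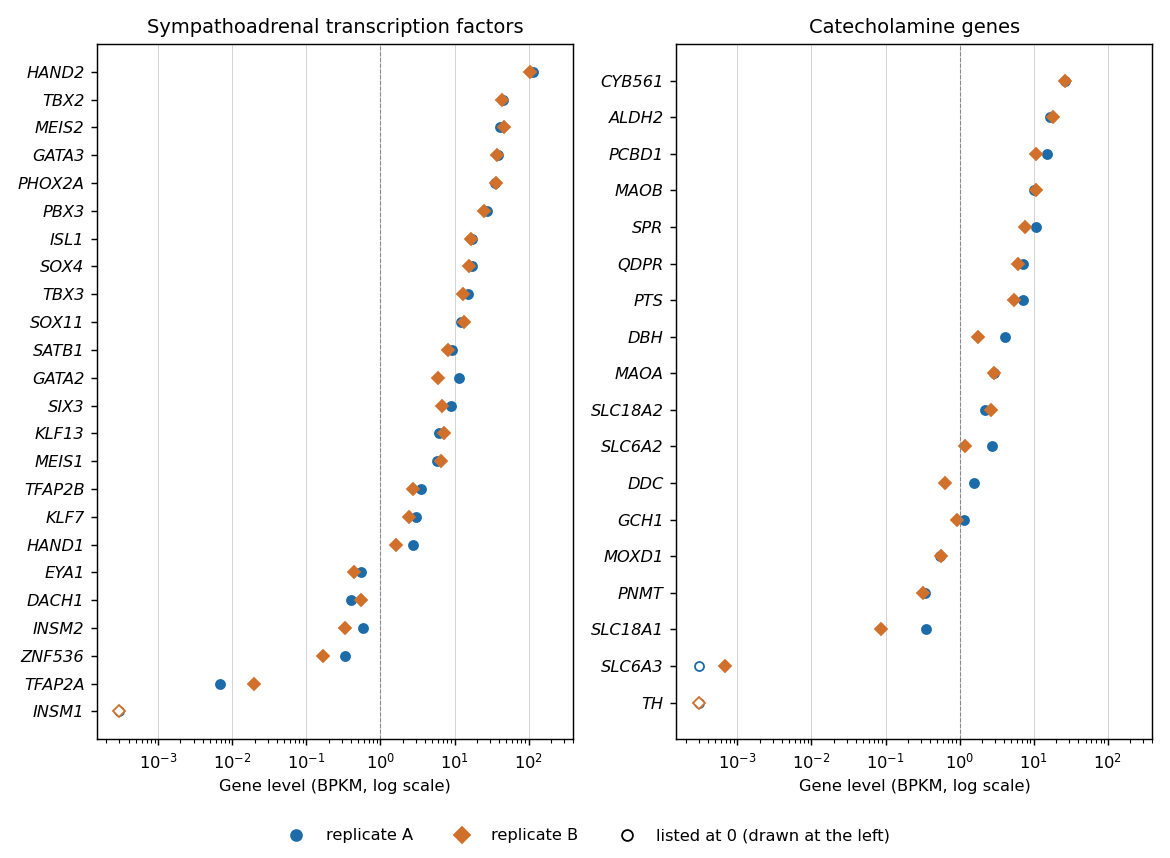
Level of 24 sympathoadrenal transcription factors (left) and 18 catecholamine genes (right) in replicate A (blue circles) and replicate B (orange diamonds), in BPKM on a log scale, with the dashed line at 1 BPKM. INSM1 and TH are listed at 0 in both libraries and drawn as open symbols at the left edge, and GATA2, DBH and DDC show wider gaps between the libraries than HAND2 or GATA3.

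Cholinergic genes were present beside the noradrenergic ones, in part. SLC18A3, the vesicular acetylcholine transporter, had 11.3 and 13.6 BPKM, above SLC18A2 in both libraries. SLC5A7, the high-affinity choline transporter, had 4.36 and 4.69 BPKM. CHAT, choline acetyltransferase, whose gene encloses SLC18A3, was under 1 BPKM, at 0.0934 and 0.116 BPKM. ACHE, acetylcholinesterase, had 2.03 and 2.34 BPKM. The transmitter list as a whole was expressed in 7 of 21 cases. GAD2 and SLC32A1 of GABA neurons, SLC17A6 of glutamate neurons, SLC6A5 of glycine neurons, TPH2 of serotonin neurons and HDC of histamine cells were the 6 members listed at 0. GLUL, glutamine synthetase, which many cell types use, was the highest, with 33.2 and 31.5 BPKM.

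The secretory granule was represented by 16 of 21 genes (76.2%, against 59.7% of protein-coding genes), with levels that spanned a wide range. VGF and SCG2 stood far above the rest. PAM, the enzyme that amidates peptides, had 123 and 195 BPKM, and CPE, carboxypeptidase E, which trims them, had 28.5 and 46.9 BPKM. SCG5, a chaperone of PCSK2, had 28.2 and 41.6 BPKM. CHGB, chromogranin B, had 3.87 and 3.56 BPKM, under CHGA in both libraries. The convertases that cut prohormones were near 0 themselves: PCSK1 had 0.000562 and 0.00127 BPKM and PCSK2 had 0.000324 and 0.000261 BPKM. PCSK1N, an inhibitor of PCSK1, had 9.02 and 9.26 BPKM.

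Some granule and amine genes share a short promoter element with genes that were at 0 here, which is why the following stretches are shown. The cyclic AMP response element has the palindromic letters TGACGTCA, read the same on both strands, and binds CREB family factors. It was found in promoters, taken from RefSeq (GRCh38.p14) as 250 bases before to 50 bases after the transcript start, of 3 of 16 granule genes (VGF, CHGA, PCSK1), 2 of 37 neuropeptide genes (SST, CARTPT), 1 of 11 catecholamine genes (SLC18A2) and 0 of 18 sympathoadrenal factors for which the table has a promoter. These counts are of genes with the element in any of their promoters. Of all promoters of the table, noncoding genes included, 1.85% held it, and of protein-coding genes with 1 promoter 2.86% did, or 3.81% of those expressed. These shares are per promoter or of genes with 1 promoter, which have fewer promoters to search. The share of all genes with the element in any promoter was not computed, so the list counts have no background of their own measure. The 150 bases before the start follow, each 5′ to 3′ on the strand of its gene, with the element in capitals. They lie at chr7:101165570-101165719 (minus strand, VGF), chr14:92923000-92923149 (plus strand, CHGA), chr10:117240964-117241113 (plus strand, SLC18A2), chr3:187670395-187670544 (minus strand, SST) and chr5:71719125-71719274 (plus strand, CARTPT).
VGF: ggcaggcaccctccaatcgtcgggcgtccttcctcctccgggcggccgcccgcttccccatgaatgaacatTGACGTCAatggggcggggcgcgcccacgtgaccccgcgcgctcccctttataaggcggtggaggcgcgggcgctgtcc
CHGA: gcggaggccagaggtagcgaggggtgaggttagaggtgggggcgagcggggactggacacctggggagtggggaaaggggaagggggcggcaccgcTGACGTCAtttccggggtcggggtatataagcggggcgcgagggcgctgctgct
SLC18A2: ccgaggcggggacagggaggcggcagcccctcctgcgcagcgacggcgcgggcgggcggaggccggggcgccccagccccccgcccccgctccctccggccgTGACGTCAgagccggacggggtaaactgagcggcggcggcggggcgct
SST: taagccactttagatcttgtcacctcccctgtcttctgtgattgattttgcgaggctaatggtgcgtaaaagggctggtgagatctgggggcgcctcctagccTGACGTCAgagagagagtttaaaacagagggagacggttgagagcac
CARTPT: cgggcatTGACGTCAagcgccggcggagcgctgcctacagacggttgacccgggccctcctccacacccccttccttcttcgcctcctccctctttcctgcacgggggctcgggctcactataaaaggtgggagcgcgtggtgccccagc

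The element began 79 bases before the start in VGF, at 1365 and 1565 BPKM, and 54 bases before it in CHGA, at 10.1 and 6 BPKM. In SLC18A2, at 2.17 and 2.62 BPKM, it began 48 bases before the start, and in SST, the somatostatin gene, which was listed at 0 in both libraries, 47 bases before it. In CARTPT, a peptide gene also listed at 0, it began 143 bases before the start. PCSK1, near 0, had it 77 bases before the start of one of its transcripts. The letters were thus shared by genes from the top of the range to its bottom.

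Neuropeptide and hormone precursors were sparse, and 11 of 47 were expressed, against 59.7% of protein-coding genes. VIP, vasoactive intestinal peptide, which also relaxes smooth muscle, was the highest, with 20.1 and 13.6 BPKM. NTS, neurotensin, had 9.68 and 13.9 BPKM, and NPW, neuropeptide W, had 10.8 and 11.9 BPKM. NMB, neuromedin B, had 9.94 and 9.69 BPKM. NPY, the peptide that sympathetic neurons release with noradrenaline, was lower, at 4.83 and 4.61 BPKM. GAL, galanin, lay on either side of the threshold, with 2.48 and 0.817 BPKM. PTHLH, parathyroid hormone-like hormone, had 4.75 and 6.92 BPKM, and NMU, neuromedin U, had 4.4 and 6.28 BPKM. The 16 members listed at 0 in both libraries included TAC1, SST, CRH, CCK, POMC, PDYN, ADCYAP1, CARTPT, GRP, TRH and OXT.

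Receptor tyrosine kinases and their co-receptors were expressed in 25 of 61 cases (41.0%), led by receptors of growth and matrix signals. MET, the receptor of hepatocyte growth factor, was the highest, with 88.7 and 81.7 BPKM. PTK7, a pseudokinase of planar polarity, had 55.5 and 73.6 BPKM. AXL, the receptor of GAS6, had 40.7 and 44.9 BPKM, and DDR2, a receptor of fibrillar collagen, had 38.6 and 37.2 BPKM. PDGFRA was higher in replicate B, with 21.6 and 42.3 BPKM, and so was PDGFRB, with 19.6 and 34 BPKM, both receptors of platelet-derived growth factors. EGFR had 18 and 24.1 BPKM, and FGFR1 had 26.1 and 24.4 BPKM.

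The kinases best known from neuroblastoma were low. RET, the signalling receptor of GDNF ligands, had 4.34 and 2.22 BPKM. NGFR, the low-affinity neurotrophin receptor, had 1.34 and 0.474 BPKM. ALK, mutated or amplified in a part of neuroblastomas, was near the threshold, with 1.04 and 0.472 BPKM. NTRK2, the receptor of BDNF, was near 0, with 0.0341 and 0.0187 BPKM. GFRA2, a co-receptor of RET, had 0.481 and 0.171 BPKM, and GFRA1 had 0.0789 and 0.0953 BPKM. RET, NGFR and ALK were each higher in replicate A. FLT3, EPHA3, EPHA5, GFRA4 and STYK1 were the 5 members listed at 0.

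Receptors of small transmitters were mostly low. Over the lists of acetylcholine, GABA, glycine, glutamate and monoamine receptors, 13 of 105 were expressed, 24 were listed at 0 and 68 lay between. With the levels of transcripts summed, 27 of the 105 were expressed. CHRNA3, the main nicotinic subunit of autonomic ganglia, had 5.96 and 3.45 BPKM, and its neighbour in the genome CHRNA5 had 6.19 and 5.8 BPKM. CHRNB4, the beta subunit of the same gene cluster, stayed under 1 BPKM, with 0.846 and 0.547 BPKM. CHRM2, a muscarinic receptor, had 1.55 and 1.01 BPKM, and CHRM3 had 0.453 and 0.34 BPKM. Among glutamate receptors GRIK5, a kainate receptor subunit, was the highest, with 15.2 and 16.3 BPKM, while the NMDA subunits GRIN2A and GRIN2B were listed at 0. GLRB, the beta subunit of glycine receptors, had 5 and 4.28 BPKM, although each alpha subunit of the list was near or at 0. HRH1, a histamine receptor, had 7.86 and 8.56 BPKM, and no dopamine or adrenergic receptor of the list was expressed. DRD1, DRD3, ADRB1 and HTR1A were among those listed at 0.

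Receptors of peptides, purines and lipids were expressed in 13 of 55 cases, and in 20 with transcripts summed. EDNRA, an endothelin receptor, was the highest, with 15.4 and 12.4 BPKM, and EDNRB, known from neural crest migration, had 0.935 and 0.916 BPKM. BDKRB1, a bradykinin receptor, had 7.51 and 5.04 BPKM. NTSR1, the receptor of neurotensin, had 6.11 and 4.65 BPKM, so the peptide and its receptor were both expressed. For VIP the receptors were not: VIPR1 had 0 and 0.0159 BPKM and VIPR2 had 0.174 and 0.0679 BPKM. ADCYAP1R1, which binds VIP weakly and PACAP strongly, had 1.07 and 0.359 BPKM. NPY1R, GALR1 and CNR1 were listed at 0. P2RX4, an ATP-gated channel, had 5.31 and 6.8 BPKM.

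Sodium channel genes were expressed in 6 of 14 cases (42.9%) and calcium channel genes in 4 of 18 (22.2%), against 59.7% of protein-coding genes. Pore subunits of calcium channels were under 1 BPKM. SCN9A, the sodium channel of sympathetic and pain-sensing neurons, had 8.79 and 10.1 BPKM. SCN2A had 6.31 and 8.28 BPKM, SCN3A had 2.32 and 2.31 BPKM, and SCN8A had 1.08 and 1.45 BPKM, so 4 of 10 alpha subunits were expressed. SCN10A, a channel of sensory neurons, was listed at 0. Of the 10 CACNA1 genes, which encode the pore of voltage-gated calcium channels, none reached 1 BPKM in both libraries, and with the levels of transcripts summed 2 did. CACNA1G, a T-type channel, was the highest on the main measure, with 0.568 and 0.6 BPKM, and CACNA1B, the N-type channel of sympathetic terminals, had 0.198 and 0.135 BPKM. Their accessory subunits stood higher: CACNA2D1 had 11.4 and 11.6 BPKM and CACNB3 had 10.4 and 11.7 BPKM.

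Other channels showed a similar selectivity. Potassium channel symbols were expressed in 13 of 94 cases, with KCNK1, a leak channel, at 23.1 and 30.8 BPKM. KCNMA1, the large-conductance calcium-activated channel, had 14.1 and 19.4 BPKM. KCNH2, the HERG channel that is common in tumour cells, had 10.4 and 8.12 BPKM, and KCNQ5, an M-current subunit, had 8.25 and 9.32 BPKM. PIEZO1, a mechanosensitive channel, had 35.8 and 42.1 BPKM, while its sensory neuron paralog PIEZO2 was listed at 0. ACCN2, an acid-sensing channel now named ASIC1, had 5.15 and 8.91 BPKM. HCN2, a pacemaker channel, had 3.56 and 4.72 BPKM. All 11 expressed members of the list of HCN, TRP, acid-sensing and mechanosensitive channels were higher in replicate B. Of all 13152 expressed genes 4706 were.

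The list of neuronal cytoskeleton, growth cone and adhesion genes was expressed in 28 of 38 cases (73.7%, against 59.7% of protein-coding genes), with a median of 20.9 BPKM among those expressed. These 28 include VIM, the highest, and NES, filaments that are not restricted to neurons. Members not expressed included MAPT, the axonal protein tau, at 0.214 and 0.164 BPKM, DCX, doublecortin of migrating neurons, at 0.681 and 0.376 BPKM, and PRPH, the peripheral neuron filament peripherin, at 0.114 and 0.0737 BPKM. TUBB3, the neuronal beta tubulin, had 111 and 78.8 BPKM, and STMN2, a microtubule regulator of growth cones, had 74.3 and 81.2 BPKM. UCHL1, a neuronal ubiquitin hydrolase, had 273 and 257 BPKM. MAP1B, an axonal microtubule protein, had 50.5 and 37.5 BPKM, and MAP2, a dendritic one, had 24.7 and 17.3 BPKM. GAP43, a growth cone protein, had 12.8 and 5.33 BPKM, more than 2-fold higher in replicate A. The tubulin alpha genes TUBA1A, TUBA1B and TUBA1C are nearly identical in coding sequence, and their levels may share reads.

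Several textbook neuronal genes were missing from that list of expressed members. MAPT, the axonal protein tau, had 0.214 and 0.164 BPKM. PRPH, peripherin, the intermediate filament of peripheral neurons, had 0.114 and 0.0737 BPKM. DCX, doublecortin, had 0.681 and 0.376 BPKM. The neurofilament genes were low, NEFM at 1.99 and 0.737 BPKM and NEFL at 1.43 and 0.481 BPKM. NES, nestin, an intermediate filament of progenitors, was well above them, at 60.2 and 48.3 BPKM. CHL1, an adhesion molecule, was near 0, with 0.00143 and 0.0078 BPKM.

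Synaptic genes were expressed in 17 of 32 cases (53.1%), under the 59.7% of all protein-coding genes. SYT11, an atypical synaptotagmin, had 58.6 and 66.9 BPKM, and SYT4, found on dense-core vesicles, had 38.4 and 39.9 BPKM. SYT1, the calcium sensor of fast release, had 8.91 and 9.72 BPKM. SNAP25 had 8.9 and 7.61 BPKM and STX1A had 9.13 and 6.34 BPKM, SNARE proteins of the plasma membrane. VAMP2, the SNARE of the vesicle, had 7.5 and 8.33 BPKM. The synapsins, which coat clear vesicles, were under 1 BPKM, SYN1 at 0.426 and 0.142 BPKM and SYN2 at 0.236 and 0.119 BPKM. The neuroligin NLGN2, a postsynaptic adhesion protein, had 29.3 and 32.5 BPKM.

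Among regulators of the neuronal RNA programme, 12 of 20 were expressed (60.0%), near the 59.7% of all protein-coding genes, and PTBP1 was the highest. PTBP1, the splicing repressor of non-neuronal cells and progenitors, had 87.5 and 70.3 BPKM, and its neuronal paralog PTBP2 had 5.33 and 5.07 BPKM. REST, which silences neuronal genes outside neurons, had 8 and 7.86 BPKM. SRRM4, the splicing factor that inactivates REST in neurons, had 0.111 and 0.046 BPKM. ELAVL4, the neuronal HuD protein, had 4.99 and 2.45 BPKM, against 16 and 12.1 BPKM for the ubiquitous ELAVL1. RBFOX3, the neuronal nuclear antigen NeuN, was near 0, with 0.0539 and 0.0741 BPKM, and RBFOX2 had 23.4 and 22.9 BPKM.

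Genes of the mesenchymal state of neuroblastoma were expressed in 21 of 25 cases, against 59.7% of protein-coding genes, with a median of 14.5 BPKM over the list. That median was 8.34 BPKM over the sympathoadrenal factors and 2.93 BPKM over all protein-coding genes. The mesenchymal list holds matrix and surface genes beside transcription factors, and the sympathoadrenal list holds transcription factors only. Their medians are thus of unlike kinds of genes and do not rank the mesenchymal against the sympathoadrenal state. FN1, fibronectin, had 434 and 441 BPKM, next to COL3A1 at 488 and 683 BPKM. CD44, the hyaluronan receptor, had 174 and 167 BPKM, and every one of its 12 transcripts had a mean over 100 BPKM. THY1, a surface glycoprotein of fibroblasts and neurons, had 73.6 and 124 BPKM. TWIST1, a basic helix-loop-helix factor of mesenchyme, had 57.9 and 60.9 BPKM, and PRRX1, a homeodomain factor of mesenchyme, had 22.1 and 34 BPKM. SNAI2, ZEB1 and ZEB2, repressors of epithelial genes, had 6.88 and 6.31 BPKM, 6.79 and 5.3 BPKM and 3.31 and 2.67 BPKM. YAP1 and its partner WWTR1, effectors of Hippo signalling, had 15.1 and 13.9 BPKM and 13.4 and 12.1 BPKM.

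The mesenchymal list had exceptions. COL1A2, a chain of type I collagen, had 0.162 and 0.203 BPKM, although COL1A1, the other chain, had 54.5 and 67.3 BPKM. RUNX2 had 0.224 and 0.216 BPKM, and MEOX2, a homeodomain factor, was listed at 0. FOSL1 and FOSL2, AP-1 subunits, were both higher in replicate A, with 32.7 and 16.9 BPKM and 21.2 and 11.8 BPKM. Whether mesenchymal and sympathoadrenal transcripts came from the same cells was not tested.

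Matrix families and their receptors held some abundant members beyond that list, while most members of several families were low. The expressed share was 39.5% of 43 collagens, 41.7% of 12 laminins, 37.5% of 24 metalloproteinases and 54.8% of 31 integrin symbols, each under the 59.7% of protein-coding genes. The integrin symbols include binding proteins, among them ITGB1BP1 and ITGB3BP, that are not integrin chains. Among collagens COL6A2, at 131 and 183 BPKM, came after COL3A1. LAMB1, a laminin chain of basement membranes, had 127 and 190.2 BPKM, and LAMC1 had 54 and 53 BPKM, whereas the alpha chain LAMA5 had 20.3 and 27.4 BPKM. Among integrins ITGB1, the common beta chain, had 488 and 561 BPKM, and ITGA3 had 198 and 241 BPKM. MMP1, interstitial collagenase, had 254 and 274 BPKM, and MMP2, gelatinase A, had 149 and 215 BPKM, the highest of 24 metalloproteinases. CDH2, neural cadherin, had 94 and 118 BPKM, and CDH11, a mesenchymal cadherin, had 30.5 and 34.9 BPKM, while 20 of 23 cadherin symbols were not expressed. CCL2, a monocyte chemokine, had 205 and 174 BPKM, against 10.0 and 11.1 BPKM for CX3CL1, the next of 44 chemokine ligands. FGF5, a fibroblast growth factor, had 49.9 and 62.8 BPKM, and SEMA3C, a guidance cue, had 83.9 and 88.1 BPKM.

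Markers of other cell types were scarce. The lists of endothelial (10 genes) and of skeletal and cardiac muscle genes (16 genes) had 0 expressed members, the hepatocyte list had 1 of 13 (SERPINA1, a protease inhibitor, at 8.16 and 4.41 BPKM), and the leukocyte list had 1 of 23. The latter was CD68, a lysosomal protein, at 11.1 and 11.7 BPKM, while PTPRC, the common leukocyte antigen, had 0.00835 and 0.00503 BPKM. The adrenal cortex list had 0 of 11 in both libraries, and 1 when replicate A was left out (NR0B1, a nuclear receptor, at 0.721 and 1.25 BPKM). The steroidogenic genes CYP11B1, CYP11B2 and MC2R were listed at 0. Of 12 pluripotency genes SOX2 alone was expressed, at 4.14 and 5.07 BPKM. With transcripts summed, 3 endothelial, 2 muscle, 2 leukocyte and 2 pluripotency genes were expressed.

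Epithelial and glial genes were mixed. The epithelial list had 7 of 18 members expressed (38.9%), under the 59.7% of protein-coding genes. KRT18, a simple epithelial keratin, had 194 and 147 BPKM, and its partner KRT8 had 19.9 and 14.2 BPKM. Expressed members also included the claudins CLDN7, at 4.02 and 3.89 BPKM, and CLDN4, at 1.75 and 1.66 BPKM. The keratin KRT19 had 2.01 and 1.26 BPKM. CDH1, epithelial cadherin, was near 0, with 0.0126 and 0 BPKM, and GRHL2 and TP63 were listed at 0. Schwann cell and neural crest precursor genes were expressed in 4 of 17 cases, and in 8 with transcripts summed. SOX10, which defines the glial lineage of the crest, was near 0, with 0.00445 and 0.0143 BPKM, and PAX3, FOXD3 and CDH19 were listed at 0. PMP22, a myelin protein also made by fibroblasts, had 46.9 and 49.7 BPKM, and SOX9 had 27.1 and 15 BPKM.

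**Figure D3:**
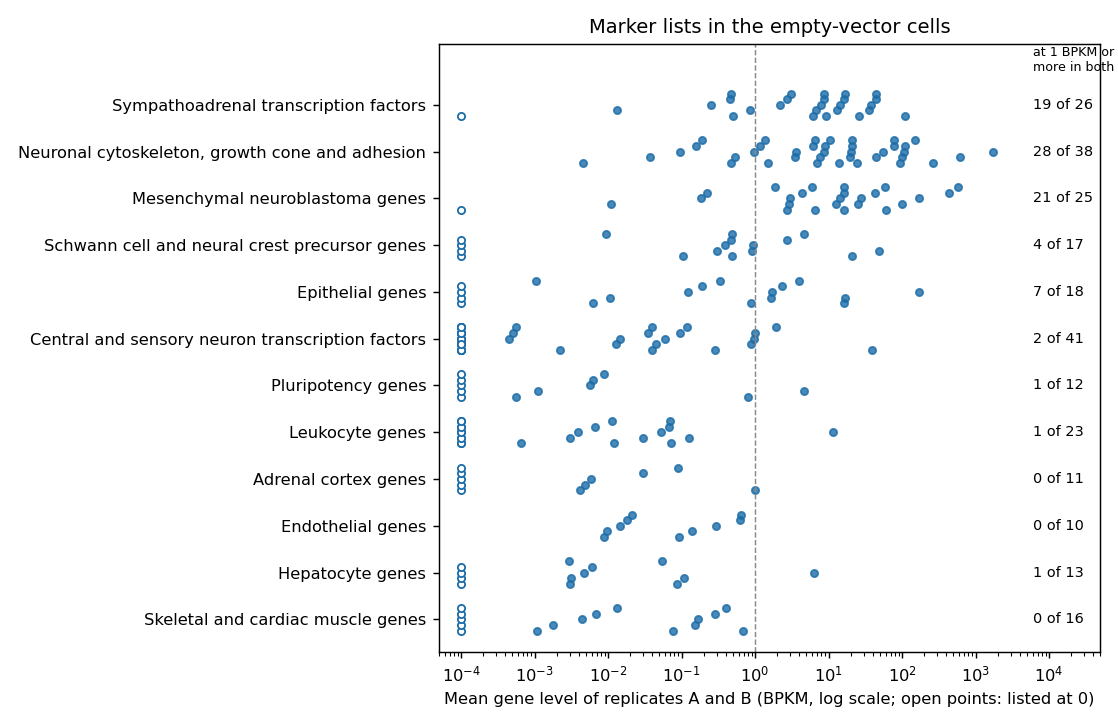
Mean level of replicates A and B, in BPKM on a log scale, of each member of 12 marker lists, with the dashed line at 1 BPKM, open points for members listed at 0 and the count of members at 1 BPKM or more in both libraries at the right. Sympathoadrenal, neuronal structure and mesenchymal members lie mostly right of the line, and the other lists mostly left of it.

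Developmental transcription factor families were expressed member by member. Of the 41 factors of central and sensory neurons, 2 were expressed and 22 were listed at 0. DLX6, a homeodomain factor of forebrain interneurons, was one of those expressed, with 2.28 and 1.57 BPKM. NEUROG1, NEUROD2, OTX2, LMX1A, OLIG2 and ATOH1 were among those listed at 0. No PAX gene (9) and no NKX gene (13) was expressed. In the HOX clusters, which mark position along the body axis, each of the 11 HOXA and 10 HOXB symbols was listed at 0 in both libraries. In HOXC 3 of 9 symbols were expressed, and in HOXD 2 of 9. HOXC4 was the highest, with 5.04 and 3.72 BPKM, followed by HOXD9, with 2.55 and 2.26 BPKM, and HOXC6, with 2.2 and 2.24 BPKM. Transcripts of neighbouring HOX genes overlap, and strand was not stated for the counting, so single members are uncertain.

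The forkhead family was expressed in 17 of 49 cases. FOXD1, a factor of stroma, was the highest, with 34.4 and 43.8 BPKM, and FOXM1, a factor of dividing cells, had 26.4 and 15.4 BPKM. Of the FOXP factors FOXP4 had 5.35 and 4.77 BPKM and FOXP1 had 3.97 and 3.74 BPKM. FOXP3, the factor of regulatory T cells, had 0.105 and 0.114 BPKM. FOXP2, the gene the study introduced into the other cells, had 0.0045 and 0 BPKM, near or at 0 in these cells.

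Among oncogenes of the MYC network MYC was expressed and MYCN was not. MYC had 8.02 and 4.71 BPKM, and MYCN, amplified in a part of neuroblastomas but not in this line, had 0.111 and 0.0336 BPKM. MYCL1 had 0.146 and 0.0541 BPKM. Their partner MAX had 14.4 and 11.8 BPKM, and of the antagonists MXD3 had 10.5 and 8.34 BPKM and MXI1 had 6.82 and 6.65 BPKM. TERT, the catalytic subunit of telomerase, had 1.63 and 1.27 BPKM, and ATRX, lost in some neuroblastomas, had 14.8 and 14.9 BPKM. All 12 telomere genes of the list were expressed.

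Genes of cell division and cell death were widely expressed. Of 31 proliferation genes 30 were expressed, with CCND1 at 50.7 and 30.4 BPKM. CCND2, another D-type cyclin, was listed at 0, and CCND3 had 12 and 8.78 BPKM. Of 33 genes of cell death and stress responses 28 were expressed. CDKN1A, a cell cycle inhibitor, had 87.6 and 49 BPKM. CASP8, an initiator caspase often silenced in neuroblastoma, had 8.05 and 7.86 BPKM, and the related CASP10 had 0.00788 and 0.0127 BPKM. Among death receptors TNFRSF10B had 54 and 55.3 BPKM, whereas TNFRSF10A had 1.33 and 1.13 BPKM. The antiapoptotic BCL2 had 1.42 and 1.36 BPKM, below BCL2L1 at 14.1 and 11.4 BPKM.

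Immune and surface genes were next. Class I presentation was expressed with unequal parts: B2M, the light chain, had 290.4 and 389.8 BPKM, and HLA-B had 1.33 and 2.03 BPKM. These genes are polymorphic and share sequence, so their levels are uncertain. The levels also depend on how transcripts are combined. Of 23 class I and II presentation genes 13 were expressed on the main measure. With the largest transcript, or with transcripts summed, 17 were. The class II genes HLA-DRA, HLA-DRB1 and HLA-DQA1 and their activator CIITA were listed at 0. CD276, the B7-H3 antigen, had 57.5 and 67.7 BPKM. B4GALNT1, which builds complex gangliosides, had 7.75 and 6.54 BPKM, while ST8SIA1, which makes the disialo precursor of the antigen targeted in neuroblastoma, had 0.0657 and 0.075 BPKM. Cancer-testis antigens were expressed in 7 of 54 cases, with MAGEA6 at 40.4 and 32 BPKM and MAGEA3 at 38.8 and 30.5 BPKM, near-identical genes whose reads may be shared.

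Isoenzymes and noncoding RNAs showed tissue choices within common pathways. LDHB had 323 and 238 BPKM and LDHA had 199.9 and 133 BPKM, subunits of lactate dehydrogenase. ENO1 had 379.8 and 291 BPKM and ENO2, the neuronal enolase, had 22.9 and 17.8 BPKM. EEF1A1 had 1243 and 1022 BPKM and its neuron and muscle paralog EEF1A2 had 20.7 and 17.6 BPKM. SLC2A1 had 23.1 and 22.5 BPKM, whereas SLC2A3, the neuronal glucose transporter, had 0.138 and 0.288 BPKM. Among long noncoding RNAs GAS5 had 79.9 and 75.8 BPKM. MALAT1 had 23.4 and 43.9 BPKM and NEAT1 had 26.2 and 52.1 BPKM, nuclear RNAs that were both higher in replicate B. MEG3, an imprinted RNA, was listed at 0 in each of its 17 transcripts, and H19, another imprinted RNA, had 14.1 and 5.61 BPKM.

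Gene families ranged from fully expressed to not expressed. All 121 symbols of the mitochondrial ribosome, complex I (NDUF) and the T-complex chaperonin were expressed. Of 554 symbols of olfactory and taste receptors, keratin-associated proteins, beta-defensins and the late cornified envelope, 0 were expressed and 488 were listed at 0, and the highest mean among them was 0.611 BPKM. All 15 reference genes were expressed, the lowest of them TBP at 10.4 and 8.99 BPKM. Of 530 ZNF zinc finger genes 393 were expressed, with a median of 2.75 BPKM among those expressed. Of 66 protocadherins 52 were expressed, with PCDHGC3 at 62.2 and 80.5 BPKM. The clustered members share their last exons, so these levels are not independent.

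**Figure D4:**
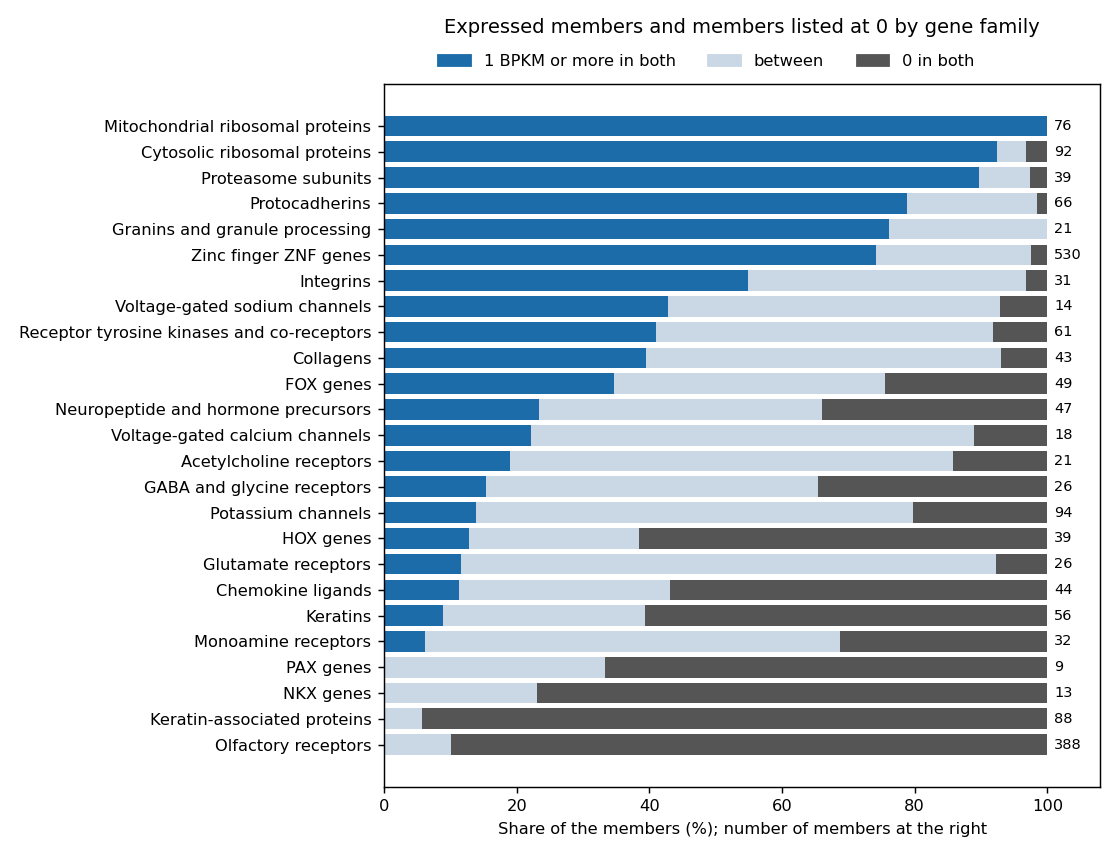
Share of the members, in percent, that were at 1 BPKM or more in both libraries (blue), between (light) and at 0 in both (dark) in 25 gene families and lists, with the number of members at the right. The bars run from mitochondrial ribosomal proteins, with 76 of 76 expressed, to olfactory receptors, with 0 of 388 expressed and 349 listed at 0.

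Promoter letters differed between these classes, as a description across genes. Over 9925 protein-coding genes with 1 RefSeq promoter, the CpG ratio (CpG observed over that expected from the C and G content of the 300 bases) had a median of 0.864 in 5951 expressed genes, 0.501 in 2429 genes between and 0.229 in 1545 genes listed at 0. The share at or above 0.6 was 89.1%, 44.5% and 20.1% in the same order. The TATA box letters TATAAA, searched on both strands, were in 4.72%, 13.8% and 26.7%, and in 11.5% of all promoters of the table. The GC box letters GGGCGG, on both strands, were in 73.8%, 50.1% and 24.0%, and in 45% of all promoters of the table, noncoding genes included. TGACGTCA was in 3.81%, 1.73% and 0.971%. Over the 9925 genes together, the shares were 10.4% for TATAAA, 60.2% for GGGCGG and 2.86% for TGACGTCA. On their letters none of the motifs can overlap another, and no factor was measured at any of them.

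Between the libraries, groups of genes leaned to either side by less than 2-fold. Of all 13152 expressed genes 64.2% were higher in replicate A and 4706 in replicate B, with a median log2 ratio of A over B of 0.11. These are the background for the counts that follow. Of 30 expressed proliferation genes 28 were higher in replicate A, with a median log2 ratio of 0.57. TOP2A, a topoisomerase of dividing cells, had 46.3 and 28.8 BPKM, and MKI67 had 25.5 and 18.5 BPKM. Cytosolic ribosomal proteins were higher in replicate A in 84 of 85 cases (median log2 ratio 0.32) and mitochondrial ones in 75 of 76 (0.38). The neuronal cytoskeleton list was higher in replicate A in 22 of 28 cases (0.38). On the other side, protocadherins were higher in replicate B in 52 of 52 cases (median -0.30), collagens in 14 of 17 (-0.25) and class I and II presentation genes in 10 of 13 (-0.42). The sympathoadrenal factors (0.12) and the mesenchymal list (0.08) lay near all genes. As 1 library stands for each transfection round, a round and its library cannot be told apart.

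The genes farthest apart between the libraries, among those with a mean of at least 5 BPKM, were few and of mixed function. Higher in replicate B were VEGFC, a lymphatic growth factor, at 4.32 and 12.4 BPKM, PLD5 at 3.39 and 9.68 BPKM, GAS1, a growth arrest protein, at 39.6 and 106 BPKM, the sequence record AL109718 at 10.7 and 27.6 BPKM, and KIAA1199 at 8.79 and 22.4 BPKM. Higher in replicate A were MIR675 at 11.2 and 2.97 BPKM, the sequence record AK311497 at 13 and 4.68 BPKM, H19 at 14.1 and 5.61 BPKM, DDIT4, a stress-induced inhibitor of mTOR signalling, at 11.1 and 4.53 BPKM, and ANKRD1, a target of YAP1, at 23.5 and 9.55 BPKM. MIR675 lies within H19, so these levels come from overlapping sequence.

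**Figure D5:**
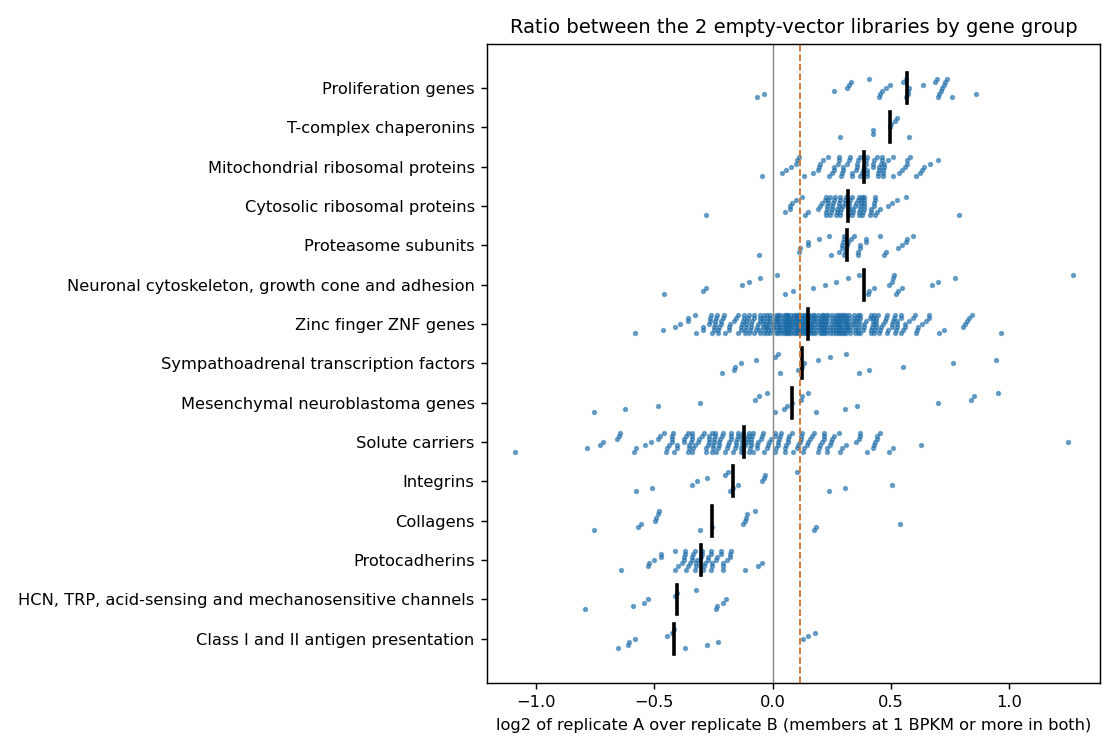
log2 of the level in replicate A over replicate B for each expressed member (points) of 15 gene groups, with the group median (black bar), equality (grey line) and the median of all expressed genes at 0.11 (orange dashed line). Proliferation genes and ribosomal proteins lie right of the grey line, and protocadherins and the HCN, TRP, acid-sensing and mechanosensitive channels left of it.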

How the data were processed

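Total RNA of stably transfected SH-SY5Y cells was converted into poly(A)-selected TruSeq libraries and sequenced in read pairs. After quality filtering, the authors mapped reads with STAR to hg19, the build that the submitters' processing notes name. The version of STAR and the use of strand in counting are not given in the sources used here. Bases over the exons of UCSC transcripts were counted, and the authors deposited them as BPKM, a base-wise form of RPKM. The table has 80922 transcripts, of which 2 without a usable symbol were left out. Since it has neither read counts nor totals, intervals from counting error cannot be computed. Overlapping genes and close paralogs may share reads. Only the columns of the 2 empty-vector libraries were used, and 8 other columns were not used here.

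The level of a gene was the mean over its transcripts, the measure of the study's methods. Expression was set at 1 BPKM in both libraries. Symbols were matched to RefSeq (GRCh38.p14) for protein-coding status and promoters, with 16931 protein-coding matches, and no coordinates of hg19 are given. Python 3.11.15, pandas 2.3.3, numpy 2.4.6 and matplotlib 3.10.9 were used, and the aggregation was tested on simulated data. Alternatives were the sum over transcripts, the largest transcript, thresholds of 0.5 and 2 BPKM, a scaling of replicate B to replicate A, a pseudocount of 1 BPKM and leaving out either library.

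The genes named were the markers, the 20 most abundant genes, up to 10 highest members of each list, every member of the lists of catecholamine genes, sympathoadrenal factors, FOXP and MYC genes, members listed at 0, up to 6 highest members of each symbol family, and the 5 genes farthest apart in each direction between the libraries among those with a mean of at least 5 BPKM. A few genes within this rule are not reported here. Some other members of the lists were named after their values were seen. The members and lists were chosen with earlier results of these data known.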

Additional observations from a re-analysis of the deposited data

How the results depend on the processing

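The count of genes at or above 1 BPKM in both libraries was 13152 and ranged from 11341 at a threshold of 2 BPKM to 14410 at 0.5 BPKM over the alternatives run, and leaving out either library gave 13411 to 13445. The count listed at 0 was 6463, and 7309 to 7407 with 1 library or below 0.01 BPKM in both. The count of genes over 2-fold apart moved more, from 106 to 189 with transcripts summed, 190 at a threshold of 0.5 BPKM, 54 at 2 BPKM and 45 with a pseudocount of 1 BPKM. It was 116 with the largest transcript and 126 with replicate B scaled by 1.08, and the cause was not tested. With transcripts summed, 10 of 39 list counts moved by over 1.5 times, all upwards (acetylcholine receptors 4 to 8, GABA and glycine receptors 4 to 7, glutamate receptors 3 to 10, peptide and purine receptors 13 to 20, calcium channels 4 to 8, Schwann cell genes 4 to 8, endothelial genes 0 to 3, muscle genes 0 to 2, leukocyte and pluripotency genes 1 to 2 each), and TH stayed at 0. Thresholds of 0.5 and 2 BPKM each moved 6 list counts that far, the largest transcript 0, and leaving out replicate A moved 1. Summing moved 476 of 863 named levels by over 1.5 times, since it scales with the number of transcripts listed. The share of expressed genes with a CpG ratio at or above 0.6 was 89.1% and fell to 77.6% with every promoter entry of a gene, an alternative chosen after seeing the data. No paired analysis was possible because the libraries belong to 1 condition and no test was run. The identity of proteins between paralogs was not run. Unknown depth limits the low values most, and a level of 0 does not show that a gene is silent.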

Other observations

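Further families were examined beside the lists above, as levels with no explanation. Solute carriers were expressed in 172 of 331 cases (52.0%), under the 59.7% of protein-coding genes. SLC25A6, a mitochondrial carrier of ADP and ATP, was the highest, with 179 and 149.9 BPKM, and SLC38A2, an amino acid transporter, had 138 and 167 BPKM. Of 59 RAB GTPases, which direct vesicle traffic, 45 were expressed, with RAB7A of late endosomes at 73.7 and 59.9 BPKM. Of 39 kinesin symbols, motors along microtubules, 28 were expressed, with KIF5B at 42.2 and 35.9 BPKM. S100 calcium-binding proteins were expressed in 9 of 19 cases, led by S100A11 at 195 and 139.5 BPKM and S100A6 at 123 and 146 BPKM. Of the non-muscle myosins MYH10 had 151 and 155 BPKM and MYH9 had 143 and 115 BPKM.

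Innate immune and metabolic families were sparser. Of 10 Toll-like receptors 4 were expressed, with TLR9 at 5.31 and 4.76 BPKM and TLR4, the receptor of lipopolysaccharide, at 3.35 and 4.28 BPKM. The 3 transcripts of TLR9 had means from 0.034 to 9.27 BPKM, so the level of this receptor is uncertain. IL11, a secreted cytokine, had 11.8 and 6.07 BPKM, the highest of 53 interleukin and interleukin receptor symbols. Cytochromes P450 were expressed in 6 of 55 cases, led by CYP51A1 of sterol synthesis at 26 and 34.4 BPKM, and none of 21 UDP-glucuronosyltransferases was. GJA1, the gap junction protein connexin of many tissues, had 23.8 and 17.8 BPKM, and 2 of 20 connexins were expressed. Of 1171 symbols of microRNA genes 779 were listed at 0 and 128 were at 1 BPKM or more in both libraries, in libraries from poly(A) RNA that hold primary or host transcripts and not mature microRNAs.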
